A study of Homo sapiens with 4 samples.

Results

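The genes described here are the 9 core genes of the actomyosin cytoskeleton, the cytoplasmic actins ACTB and ACTG1, the filamins FLNA and FLNC, the nonmuscle actinins ACTN1 and ACTN4, and the myosin II chains MYH9, MYH10 and MYL9. They were picked by name and role, with no threshold on a measured value, and are 9 of the 60564 genes listed in the counts. RNA-seq compared Elf1 cells, an established naïve human ESC line, in 2-D culture and in 3-D culture, with 2 independent biological replicates (libraries) per condition. The 2-D cells grew attached to Matrigel on plastic. The 3-D cells were taken as single cells into PEG-8-SH/PEG-8-Acr scaffolds, gels that form when the thiol and acrylate ends of these polymers react, and stayed there for 21 days without passaging. Both conditions used the same expansion medium, which held FGF2, CHIR99021, PD03296501 and LIF, and the line had grown on mouse embryonic feeder cells before it was moved to Matrigel. All libraries came from 1 cell line, and the scaffold, the dissociation and the time without passaging cannot be told apart.

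Actin subunits polymerize into filaments. Filamins crosslink the filaments into networks and tie them to membrane receptors, and actinins bundle them in stress fibers and at adhesions. Nonmuscle myosin II, a complex of heavy chains with regulatory and essential light chains, pulls on the filaments when its regulatory chain is phosphorylated downstream of RhoA and ROCK. In attached cells this system carries tension between the matrix and the nucleus, and in human ESCs myosin activity is known for its part in colony compaction and in the death of dissociated single cells.

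The libraries held 18276147 to 33833778 counts, fewer in 3-D than in 2-D. Mitochondrially encoded genes took 5.10% to 5.30% of the counts in 2-D and 8.33% to 8.50% in 3-D grown cells. Normalised levels are CPM, counts scaled to a common library total after TMM correction of the library sizes. Values after ± are SDs of the 2 replicates of a condition, and fold changes compare 3-D with 2-D grown cells, positive where 3-D was higher. SE stands for standard error. A gene is called when its Benjamini-Hochberg adjusted p from edgeR's quasi-likelihood test, over the 22555 genes tested, was below 0.05. The 9 genes all passed the filter on low counts, with at least 2641 counts in every library.

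In 3-D grown cells 8 of the 9 genes rose, all but ACTG1, and their increases were small. The log2 fold changes of the 8 lay between 0.10 (MYH10) and 0.28 (MYL9 and ACTN4), or 1.07-fold to 1.21-fold. The median over the 9 genes was 0.15, beside −0.00013 over all genes tested. Of all genes tested, 4.54% were called higher, 3.36% lower and 7.90% in either direction. The 9 genes were chosen with earlier results known, so these shares stand beside them as a description and not as a test. Both 3-D libraries lay above both 2-D libraries in the same 8 genes, which was true of 25.4% of all genes tested. Together the 9 genes took 1.32% of the counts in each 2-D library, and 1.38% and 1.43% in the 3-D libraries.

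The 8 increases fall into a group that kept its call and a group that did not. ACTB, ACTN4 and MYL9 were called with each of the 14 alternative settings, which included each library left out in turn. FLNA, FLNC, ACTN1, MYH9 and MYH10 kept their direction in all 14 but were not called in 3, 8, 6, 6 and 9 of them, respectively. When length and GC content entered as offsets, 3 of the 9 genes were called and the median fell to 0.07. Without replicate 1 or without replicate 2 of the 2-D cells, 4 of the 9 were called (the same 3 and FLNA). Under scaling by library size alone, 3 were called higher and ACTG1 was called lower, and the split of all called genes turned from 1024 higher and 758 lower to 514 higher and 1872 lower. In bulk samples, a change in the share of a cell type and a change in RNA per cell cannot be told apart.

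**Figure D1:**
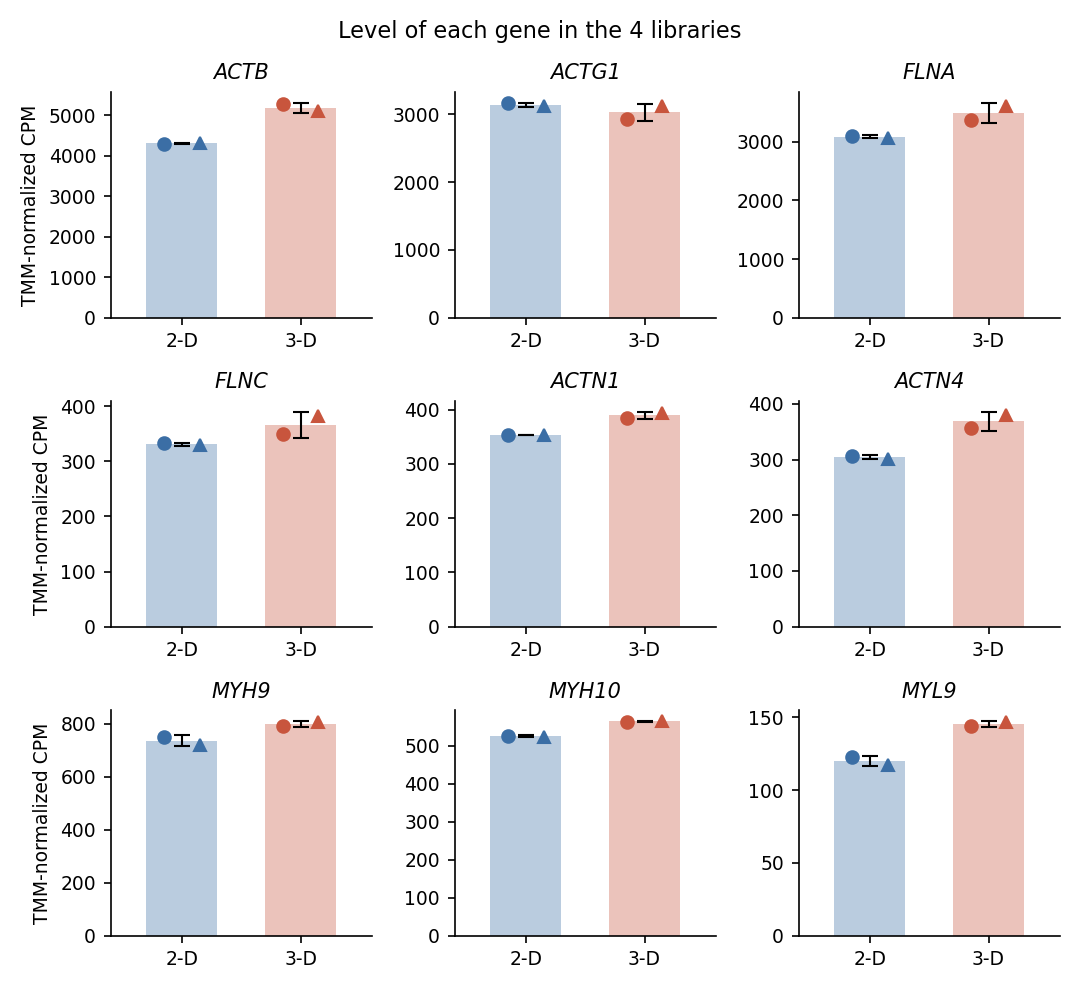
TMM-normalized CPM (y axis, from 0) of the 9 genes in 2-D (blue) and 3-D (red) grown cells. Circles are replicate 1, triangles replicate 2, bars the mean and whiskers the SD (n = 2); the 3-D points lie above the 2-D points in every panel except that of ACTG1.

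The actins went apart. ACTB, the β-actin found in stress fibers and moving edges, had 4294 and 4314 normalised CPM in 2-D and 5273 and 5097 in 3-D grown cells. The 3-D values did not overlap those of 2-D grown cells, and the means were 4304 ± 14.1 and 5185 ± 125 (n = 2 each). The log2 fold change was 0.27 (SE 0.03, adjusted p = 2.02e-04, edgeR quasi-likelihood test), between 0.20 and 0.29 in the alternatives. ACTB lies on the minus strand of chromosome 7, from 5526409 to 5563902 (GENCODE release 44, hg38).

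ACTG1, the γ-actin that differs from β-actin by a few residues and is abundant in the cortex, had 3164 and 3121 normalised CPM in 2-D and 2940 and 3120 in 3-D grown cells. Replicate 2 of the 3-D cells sat at the level of replicate 2 of the 2-D cells, and only replicate 1 of the 3-D cells stood lower. Its log2 fold change of −0.05 did not pass the test (SE 0.03, adjusted p = 0.408, edgeR quasi-likelihood test), and the 95% interval ran from −0.12 to 0.02. This interval leaves out the fold change of ACTB. Without replicate 2 of the 3-D cells the value was −0.10 (adjusted p = 0.0395), and without replicate 1 it was −0.012. ACTG1 lies on the minus strand of chromosome 17, from 81509413 to 81523847.

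As a check that needs no scaling between libraries, the share of ACTB in the counts of both actins was computed in each library. It was 57.6% (95% Wilson interval 57.4 to 57.8) and 58.0% (57.8 to 58.2) in 2-D, and 64.2% (64.0 to 64.4) and 62.0% (61.8 to 62.3) in 3-D grown cells. Both 3-D shares stood above both 2-D shares by more than either condition varied, and the 3-D libraries differed more from each other than the 2-D libraries did, with SDs of 1.54 and 0.312 percentage points. The transcripts of ACTB and ACTG1 are close in length (1812 and 1919 bases) and in GC content (55.2% and 54.7%). With 2 libraries against 2, the two-sided exact permutation test gave p = 0.333, the smallest it can give, and 0.400 after adjustment over the 6 pairs compared.

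**Figure D2:**
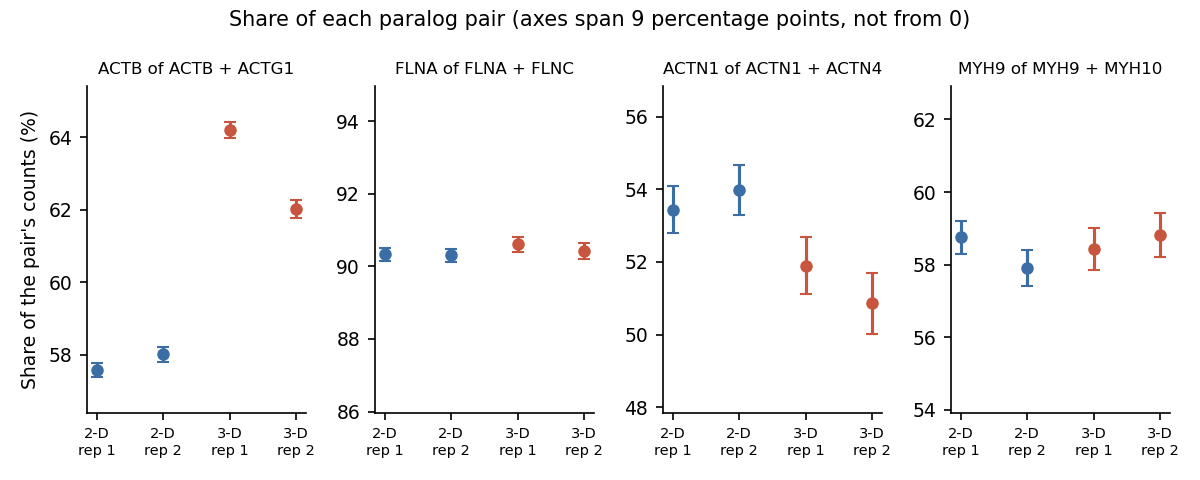
Share of the first gene of each pair in the counts of both genes (y axis, %), in each 2-D (blue) and 3-D (red) library, with 95% Wilson intervals for counting error. Each axis spans 9 percentage points and does not start at 0; the ACTB share is higher in both 3-D libraries, the ACTN1 share lower, and those of FLNA and MYH9 stay within narrow bands, from 90.3% to 90.6% and from 57.9% to 58.8%.

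Among the filamins, the long dimers that crosslink actin, FLNA was by far the more abundant. FLNA (chromosome X, minus strand, from 154348524 to 154374634) had 3104 and 3066 normalised CPM in 2-D and 3369 and 3617 in 3-D grown cells. Both 3-D libraries were higher, replicate 2 more so. The log2 fold change was 0.18 (SE 0.03, adjusted p = 0.00757, edgeR quasi-likelihood test) and became 0.08 (adjusted p = 0.135) with offsets for length and GC content.

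FLNC, the muscle-enriched filamin, lies on the plus strand of chromosome 7, from 128830406 to 128859274. It had 332 and 329 normalised CPM in 2-D and 349 and 383 in 3-D grown cells. Replicate 2 of the 3-D cells was the highest and replicate 1 lay closer to the 2-D libraries. The log2 fold change was 0.15 (SE 0.04, adjusted p = 0.0421, edgeR quasi-likelihood test). It was 0.08 (adjusted p = 0.0699) without replicate 2 of the 3-D cells, 0.21 (and called) without replicate 1, and 0.05 (adjusted p = 0.417) with offsets for length and GC content. FLNA made up 90.3% of the counts of both filamins in each 2-D library and 90.6% and 90.4% in the 3-D libraries (exact permutation p = 0.333, the smallest possible, and 0.400 adjusted over the 6 pairs).

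The actinins, antiparallel dimers that bundle filaments and link them to adhesions, rose by unequal amounts in point estimate. Their 95% intervals overlapped, from 0.08 to 0.21 for ACTN1 and from 0.20 to 0.35 for ACTN4. ACTN4 (chromosome 19, plus strand, from 38647649 to 38731589) had 307 and 302 normalised CPM in 2-D and 357 and 381 in 3-D grown cells. Its groups stood well apart, with means of 305 ± 4.0 and 369 ± 17.3 (n = 2 each) and a log2 fold change of 0.28 (SE 0.04, adjusted p = 5.58e-04, edgeR quasi-likelihood test). The alternatives gave 0.20 to 0.32. ACTN4 shares 868 of the 6125 bases in its exons with exons of CAPN12 on the other strand, and whether the counting used the strand is not given in the sources used here. CAPN12 had 29.9 to 39.1 normalised CPM and a log2 fold change of 0.26 (SE 0.07, adjusted p = 0.0491, edgeR quasi-likelihood test).

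ACTN1 (chromosome 14, minus strand, from 68874128 to 68979440) had 353 and 354 normalised CPM in 2-D and 385 and 394 in 3-D grown cells, and the libraries of a condition lay close together. The log2 fold change was 0.14 (SE 0.03, adjusted p = 0.0127, edgeR quasi-likelihood test), and 0.07 (adjusted p = 0.190) with offsets for length and GC content. The share of ACTN1 in the counts of both actinins was 53.4% and 54.0% in 2-D and 51.9% and 50.9% in 3-D grown cells. The shares of the conditions did not overlap (exact permutation p = 0.333, the smallest possible, and 0.400 adjusted over the 6 pairs).

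The myosin II heavy chains are the motors of nonmuscle contraction. MYH9, the IIA heavy chain (chromosome 22, minus strand, from 36281280 to 36388010), had 751 and 720 normalised CPM in 2-D and 792 and 808 in 3-D grown cells. Its log2 fold change was 0.12 (SE 0.03, adjusted p = 0.0375, edgeR quasi-likelihood test), and 0.03 (adjusted p = 0.709) with offsets for length and GC content. MYH10, the IIB heavy chain (chromosome 17, minus strand, from 8474207 to 8631376), had 527 and 524 normalised CPM in 2-D and 563 and 566 in 3-D grown cells. Its replicates lay close together in both conditions, and the change of 0.10 was called at the edge of the threshold (SE 0.03, adjusted p = 0.0492, edgeR quasi-likelihood test), while with offsets it was 0.06 (adjusted p = 0.253). Both were also lost with either 2-D library left out. The share of MYH9 in the counts of both heavy chains was 58.7% and 57.9% in 2-D and 58.4% and 58.8% in 3-D grown cells, and these ranges overlapped (exact permutation p = 0.667, also after adjustment over the 6 pairs).

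The regulatory light chain MYL9 rose more than the heavy chains in point estimate, a difference that was not tested. MYL9 (chromosome 20, plus strand, from 36541497 to 36551447) had 122 and 117 normalised CPM in 2-D and 144 and 147 in 3-D grown cells, with no overlap. The means were 120 ± 3.46 and 146 ± 2.09 (n = 2 each), and the log2 fold change of 0.28 (SE 0.03, adjusted p = 2.33e-04, edgeR quasi-likelihood test) stayed between 0.21 and 0.31 in the alternatives. The other regulatory light chains expressed here, MYL12A and MYL12B, had log2 fold changes of −0.0059 and 0.08 that did not pass (adjusted p = 0.946 and 0.258, edgeR quasi-likelihood test), with 95% intervals from −0.08 to 0.06 and from −0.0035 to 0.16. Both intervals lie below the 0.21 to 0.35 of MYL9. The share of MYL9 in the counts of MYL9 and MYL12A was 47.6% and 45.9% in 2-D and 50.9% and 52.4% in 3-D grown cells. Against MYL12B it was 52.8% and 51.8% in 2-D, and 54.7% and 57.0% in 3-D (exact permutation p = 0.333 for either pair, the smallest possible, and 0.400 adjusted over the 6 pairs).

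**Figure D3:**
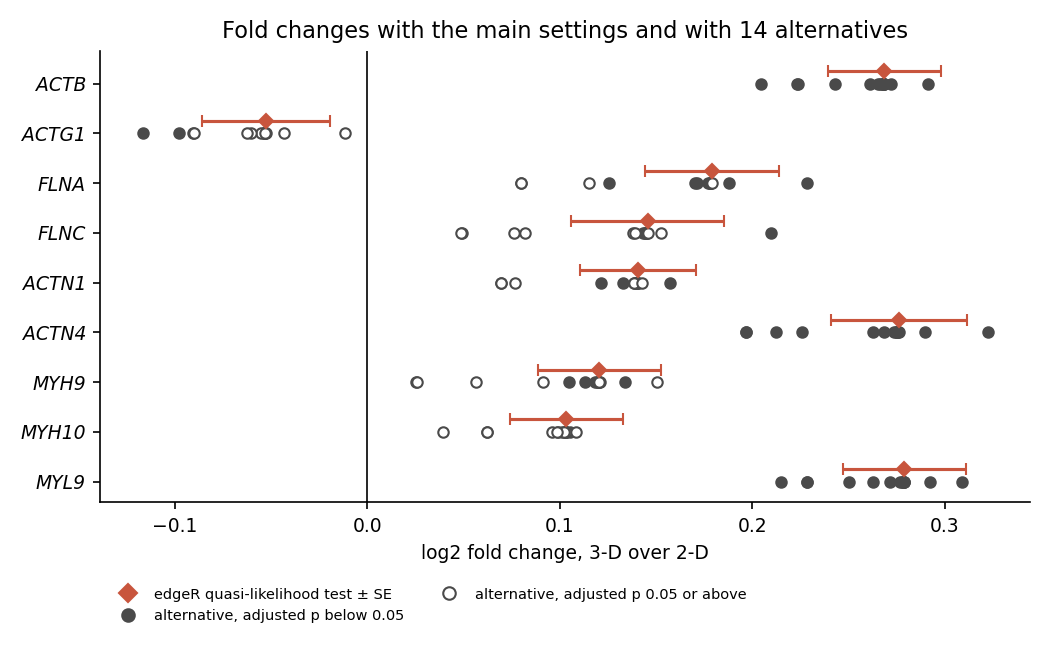
Log2 fold change (x axis, positive where 3-D was higher) of the 9 genes. Red diamonds are the values reported with their standard errors and circles the 14 alternative settings, filled where the adjusted p was below 0.05; the circles of ACTB, ACTN4 and MYL9 are all filled, and no gene changes sign.

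Levels were compared between genes as normalised CPM per kb of the canonical transcript. On this scale the 2-D means ran from 2375 ± 7.80 for ACTB and 1638 ± 15.8 for ACTG1, through 363 ± 3.16 for FLNA, to 98.7 ± 2.88 for MYH9 and 94.9 ± 0.190 for ACTN1. MYH10, ACTN4, MYL9 and FLNC followed at 68.2 ± 0.312, 61.0 ± 0.793, 43.1 ± 1.24 and 36.1 ± 0.239 (n = 2 each). No neighbours in this order overlapped between their 2-D libraries. In 3-D grown cells the order was the same except for MYH10 and ACTN4, which overlapped at 73.2 ± 0.211 and 73.9 ± 3.47. Counts cover all exons of a gene, which can exceed the canonical transcript when merged, as in MYH10 (32700 against 7707 bases). Scaling by another length could change the order.

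**Figure D4:**
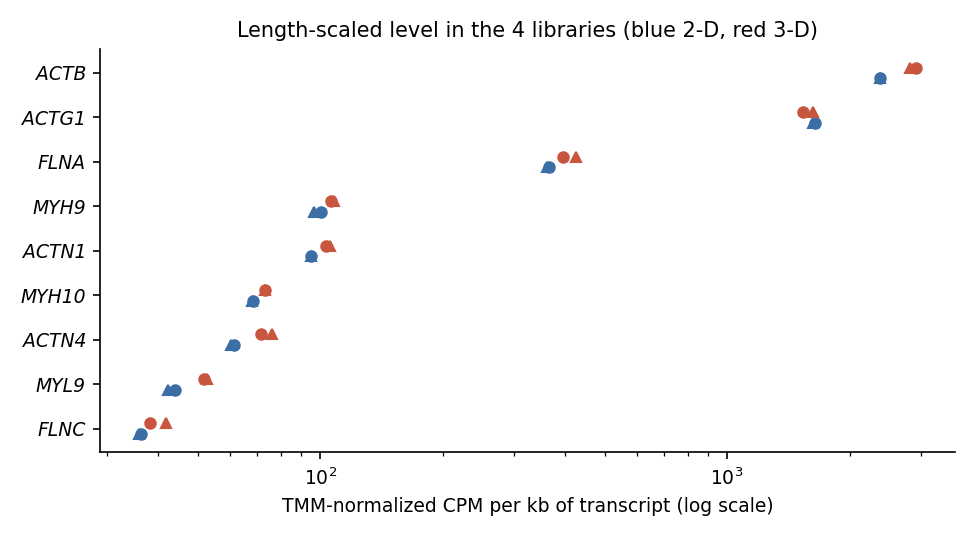
TMM-normalized CPM per kb of canonical transcript (x axis, log scale) of the 9 genes in the 2-D (blue) and 3-D (red) libraries, circles for replicate 1 and triangles for replicate 2. The actins stand highest, FLNA next, and the other 6 genes lie between 35.9 and 108.

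The CArG box, the site bound by SRF in many actin and muscle genes, was searched in the 300 bases around RefSeq start sites (250 before and 50 after) on GRCh38.p14. Its pattern is its own reverse complement, so 1 search covers both strands. The box occurred in 1.29% of all 35116 such windows listed. Among the genes described here 7 had 11 windows, and 3 of the windows held a box; ACTB and MYL9 were not searched. They are shown with 30 bases each, beside that of the skeletal α-actin gene ACTA1, since they are the boxes of genes whose RNA is compared here, with the box in capitals, 5′ to 3′ on the strand of the gene, which is the minus strand in all 4.

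ACTG1, chr17:81512874-81512903, box from 94 to 85 bases before the start: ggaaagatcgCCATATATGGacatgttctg

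FLNA, chrX:154374709-154374738, box from 94 to 85 bases before the start: ggcaattttaCCAATTAAGGctttctcgcc

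ACTN1, chr14:68977718-68977747, box from 171 to 162 bases before 1 of its 4 listed starts: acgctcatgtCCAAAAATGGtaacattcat

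ACTA1, chr1:229434172-229434201, box from 97 to 88 bases before the start: tgcccaacacCCAAATATGGctcgagaagg

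The windows of FLNC, ACTN4, MYH9 and MYH10 and the other 3 of ACTN1 held no match. A match of letters is a description and not a measured site, and the letters alone say nothing of binding.

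The other genes of the system were taken from 7 lists ordered by role, 125 genes in all, of which 122 were tested. Of these, 25 were called higher and 3 lower, and the median log2 fold change was 0.06. Over all genes tested 4.54% were called higher and 3.36% lower, and each list below is to be read against these shares. At such shares, 0 calls among 5 or 10 genes are no result about a list. An unadjusted p below 0.05 in edgeR, in either direction, was found for 4808 of the 22555 genes tested. Counts of a list at that threshold are to be read against this background. The balance of calls depended on the settings. With offsets for length and GC content 10 were called higher and 7 lower (733 and 750 over all genes). With library size alone 7 were higher and 16 lower (514 and 1872 over all genes). By DESeq2 18 were higher and 0 lower (511 and 284 over all genes).

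Of 7 other actins, filamins and actinins tested, edgeR called 2 higher and 0 lower, with a median of 0.23, and DESeq2 called 2 and 0. In edgeR 4 were higher and 0 lower at an unadjusted p below 0.05. ACTA1 had 167 and 164 normalised CPM in 2-D and 195 and 194 in 3-D grown cells, a log2 fold change of 0.23 (SE 0.03, adjusted p = 5.25e-04, edgeR quasi-likelihood test) that was called in 14 of 14 alternatives. None of the 5 other myosin II chains tested was called by edgeR or by DESeq2, and 2 of the 5 had an unadjusted p below 0.05 in edgeR, MYH14 (0.19, adjusted p = 0.0733) and the essential light chain MYL6 (−0.09, adjusted p = 0.0961).

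The list of tropomyosins, calponins and bundlers, which also holds spectrins and linkers to the membrane, had the most calls of the 7. Of 25 genes listed as tropomyosins, calponins and bundlers, edgeR called 13 higher and 0 lower, with a median of 0.12, and DESeq2 called 11 and 0. In edgeR 20 were higher and 0 lower at an unadjusted p below 0.05. CNN1, a calponin, had 22.2 and 21.7 normalised CPM in 2-D and 27.1 and 29.2 in 3-D grown cells, a log2 fold change of 0.36 (adjusted p = 0.00729). SPTBN1, a spectrin, TPM4, a tropomyosin, and MSN, the linker moesin, rose by 0.20, 0.19 and 0.18 (adjusted p = 0.00156, 0.00224 and 0.00298, edgeR quasi-likelihood test). CNN1, SPTBN1, TPM4 and MSN were called in 14, 14, 14 and 13 of the 14 alternatives. The calls of TPM1, TPM2, CNN2, CALD1, TAGLN, LASP1 and SPTAN1 were lost with offsets for length and GC content. Of these genes, TPM2 and CALD1 were called in 6 alternatives each and SPTAN1 in 4. In the list of stress fiber and actin anchor proteins, edgeR called 5 of 18 higher and 0 lower, with a median of 0.08, and DESeq2 called 1 and 0. In edgeR 7 were higher and 2 lower at an unadjusted p below 0.05. ZYX, the zyxin of adhesions and strained fibers, PDLIM7, a partner of actinin, and PXN, the adaptor paxillin, rose by 0.25, 0.22 and 0.13 (adjusted p = 0.00745, 0.0148 and 0.0193). They were called in 14, 10 and 7 of the 14 alternatives, and PXN was at 0.04 and not called with offsets for length and GC content.

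Of 33 genes of assembly and turnover tested, edgeR called 3 higher and 3 lower, with a median of −0.02, while DESeq2 called 3 higher and 0 lower. In edgeR 5 were higher and 7 lower at an unadjusted p below 0.05. WASF2, which activates branching, WDR1, which helps to take filaments apart, and PFN1, the profilin that feeds actin monomers to growing ends, rose by 0.16, 0.16 and 0.15 (adjusted p = 0.0111, 0.0111 and 0.0472). They were called in 11, 9 and 7 of the 14 alternatives, and none of the 3 with offsets for length and GC content. TMSB4X, the thymosin that holds actin monomers, had 967 and 957 normalised CPM in 2-D and 874 and 783 in 3-D grown cells, and fell by 0.22 on the log2 scale (adjusted p = 0.00922). CAPZA2, of the capping protein, and ARPC5, of the Arp2/3 complex, fell by 0.17 and 0.13 on the log2 scale (adjusted p = 0.0121 and 0.0375). The 3 decreases were called in 13, 11 and 9 of the 14 alternatives, in the order named.

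Of 24 upstream genes of RhoA, ROCK and myosin phosphorylation, edgeR called 2 higher and 0 lower, with a median of 0.06, and DESeq2 called 1 and 0. In edgeR 9 were higher and 0 lower at an unadjusted p below 0.05. ARHGEF2, an exchange factor for RhoA, had 45.3 and 43.7 normalised CPM in 2-D and 53.7 and 53.8 in 3-D grown cells, a log2 fold change of 0.27 (SE 0.05, adjusted p = 0.00336, edgeR quasi-likelihood test) called in 14 of 14 alternatives. ARHGAP35 rose by 0.11 (adjusted p = 0.0476), with a call in 3 of 14. None of the 10 genes listed as SRF and MRTF regulators was called by edgeR's quasi-likelihood test or by DESeq2. Of the 10, 1 had an unadjusted p below 0.05 in edgeR (lower), and the median was 0.03.

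**Figure D5:**
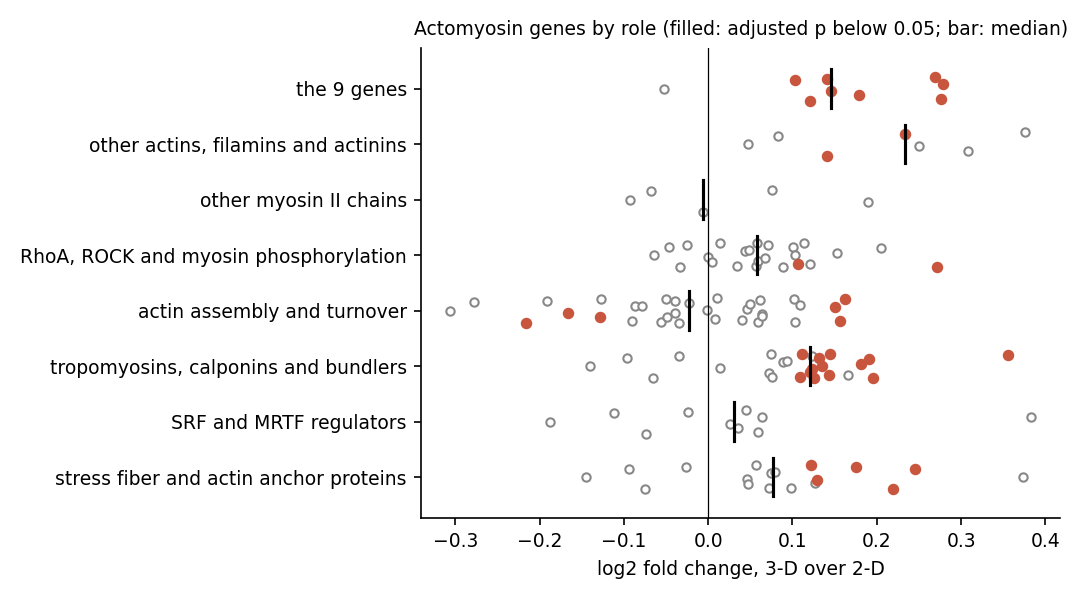
Log2 fold change (x axis, positive where 3-D was higher) of each tested gene of the 9 and of the 7 related lists, filled where called, with a bar at the median of each list. The calls of the 9 genes and of the tropomyosins, calponins and bundlers lie right of 0, and assembly and turnover genes are called on both sides by edgeR (by DESeq2 only higher).

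Markers of the cells were checked in the same libraries. Their counts at an unadjusted p below 0.05 stand beside 4808 of the 22555 genes tested, in either direction. The 7 core pluripotency genes were all present, with summed levels of 5622 to 5671 normalised CPM in 2-D and 5799 to 5901 in 3-D grown cells. PODXL alone was called (higher), at 2234 to 2250 in 2-D and 2457 to 2465 in 3-D. At an unadjusted p below 0.05 in edgeR 3 were higher and 1 lower (DPPA4, log2 fold change −0.09). Of 10 fibroblast markers 8 were tested. The matrix genes COL1A1, COL3A1 and POSTN and the surface marker THY1 were called higher in 3-D grown cells. They rose by 0.29, 0.73, 0.65 and 0.22 on the log2 scale (adjusted p = 7.79e-04, 7.04e-04, 0.0181 and 0.00453, edgeR quasi-likelihood test). COL1A2, the most abundant of the list, was at −0.04 and not called. PDGFRB, FBLN1 and FAP were at 0.02, 0.08 and 1.01 and not called either. DESeq2 called 3 of the list higher and 0 lower. The fibroblast list summed to 634 to 641 normalised CPM in 2-D and 656 to 712 in 3-D grown cells, while DCN and LUM had 2 to 17 counts in a library and none of the list was at 0. The list of smooth and striated muscle markers summed to 35.9 to 36.8 in 2-D and 38.3 to 46.3 in 3-D. Of its 6 tested genes 0 were called by edgeR or DESeq2 and 1 had an unadjusted p below 0.05, with MYOD1 at 0 counts in every library and MYH11, the smooth muscle heavy chain, at 1 to 3 counts. None of the trophoblast (4), endoderm (3) and neural ectoderm (5) markers tested was called by edgeR or DESeq2, and 0, 1 and 1 of them had an unadjusted p below 0.05 in edgeR. Their summed levels were 4.17 to 5.05, 8.0 to 9.91 and 589 to 615 normalised CPM. NES made up nearly all of the neural ectoderm sum, at 576 to 601. PAX6, SOX1, TUBB3, DCX and MAP2 had at most 5.7 each. CGA and TTR were at 0. The part of these markers in the changes of the 9 genes was not tested.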

How the data were processed

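RNA of 4 libraries, 2 replicates each of 2-D and 3-D grown Elf1 cells, was depleted of ribosomal RNA and sequenced with paired ends. The authors trimmed the reads with Trim Galore 0.6.3, mapped them to hg38 with HISAT2 2.1.0 and deposited raw counts per gene from featureCounts 1.6.4 on GENCODE release 30. A second deposited table, with normalized values and the fold changes and p-values of the authors' own DESeq2 2.11.40.6 comparison, was not used. Identifiers were matched without their version to GENCODE release 44 (60295 of 60564; the others held 0.122% of the counts). Replicates of a condition differed by more than sampling noise (chi-square over degrees of freedom 2.27 in 2-D and 3.92 in 3-D).

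Counts were fitted with edgeR 4.0.16 in R 4.3.3 (TMM, its filter on low counts, quasi-likelihood test, condition alone, Benjamini-Hochberg adjustment over 22555 genes). The standard error (SE) is the log2 fold change over the square root of F. The test was tried on simulated data first, of which no values are given, so that trial says nothing about the calls. There were 14 alternatives. In 4, 1 library was left out, and a lone library is then assumed to vary like the others. The rest changed the test (likelihood ratio, DESeq2 1.42.0), the scaling, the filter (none, or a minimum of 10 counts per library) or the model. The scalings were DESeq2 size factors, library size alone, or sizes that leave out mitochondrial, ribosomal protein and histone genes. The models had a replicate block, spline offsets with 5 degrees of freedom for GC content and length, or both. For these offsets GC content was that of the canonical transcript. Length was that of all exons of the gene merged, which can exceed the canonical transcript. Wilson intervals cover counting error only. Levels per kb use the Ensembl canonical transcript.

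The 9 genes and the lists (7 by role, 6 of markers for core pluripotency, fibroblasts, muscle, trophoblast, endoderm and neural ectoderm) were chosen with earlier results of these data known. Named besides the 9 are the 3 called genes with the smallest p per direction and role list, actin pseudogenes with at least 100 counts in a library, overlapping genes, and the gene nearest in pattern to each of the 9; other related and marker genes named were picked after their values were seen. A called gene of the role lists is not reported here. Figures used matplotlib 3.10.9.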

Additional observations from a re-analysis of the deposited data

How the results depend on the processing

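No log2 fold change of the 9 genes changed sign in the 14 alternatives. The count of called genes among the 9, which was 8, became 3 with edgeR's likelihood ratio test, 4 with library size only, 3 with offsets for length and GC and 5 with these offsets and the replicate block, and ranged from 4 to 8 with each library left out. Over all genes, 1782 calls became 1139 with the likelihood ratio test and 795 with DESeq2, and 792 to 2390 with a library left out. Over the related lists, 28 calls became 11 with the likelihood ratio test, 18 with DESeq2 and 17 with offsets, and 8 to 37 with a library left out. Their split of 25 higher and 3 lower became 7 and 16 with library size only, and 18 and 0 with DESeq2. Without replicate 1 of the 2-D cells the counts were 846 over all genes, 4 of the 9 and 12 of the related genes, and without replicate 2 they were 792, 4 and 8. The causes were not tested. ACTG1 was called lower with library size only, with the block and offsets together, and without replicate 2 of the 3-D cells. Replicates of the conditions share only a number (correlation of deviations −0.0079), and the replicate block gave 2167, 8 and 30 calls.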

Other observations

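Actin pseudogenes are copies of the actin genes, and reads can be shared between them. The 33 annotated copies summed to 15.7 and 15.8 normalised CPM in 2-D and 12.4 and 9.52 in 3-D grown cells, far under the levels of ACTB and ACTG1. Only ACTG1P10 and ACTG1P25 reached 100 counts in a library. ACTG1P10 had 3.86 and 4.11 normalised CPM in 2-D and 2.62 and 1.67 in 3-D grown cells, a log2 fold change of −0.87 (SE 0.20, adjusted p = 0.0187, edgeR quasi-likelihood test), and ACTG1P25 had −0.47 (adjusted p = 0.137). Of the 75-base windows of the canonical transcripts, 2.88% in ACTB, 2.94% in FLNC, 0.773% in ACTN4, 0.285% in MYH9 and 0 in the other 5 genes also occurred in a transcript of another gene.

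Neighbours on the opposite strand overlap several of the 9 genes. NDEL1, which shares 72 exon bases with MYH10, had a log2 fold change of 0.21 (adjusted p = 0.0130), and FLNC-AS1, which shares 68 with FLNC, had 0.18 (adjusted p = 0.371, edgeR quasi-likelihood test).

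Likeness of pattern was measured as the Euclidean distance between log2 CPM, centred per gene over the 4 libraries, among the 9 genes and the related lists. The nearest gene to ACTB was ACTA1 (distance 0.0525), to ACTG1 ARHGEF12 (0.0234), to FLNA MYH14 (0.0335), to FLNC TAGLN2 (0.0221), to ACTN1 CNN2 (0.0137), to ACTN4 MYL9 (0.0524), to MYH9 LIMK1 (0.0182), to MYH10 TPM3 (0.0233) and to MYL9 ARHGEF2 (0.0210). Each distance rests on 4 libraries and is a description only.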
